A study of Rattus norvegicus and Ovis aries with 113 samples.

Results

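The immediate early genes are genes whose transcription rises within minutes of a stimulus without the need for new protein, and 10 of them, FOS, FOSB, JUNB, EGR1, EGR2, EGR4, ARC, NR4A1, NR4A3 and NPAS4, were taken by their symbols from RNA-seq count tables of sheep and rat. All 10 were found among the 31304 genes of the sheep table and among the 38675 genes of the rat table. The sheep were 5 post-pubertal males, named 687, 688, 690, 694 and 699, from each of which 10 brain regions of the same hemisphere and a sperm sample gave 55 libraries. The regions were basal ganglia, cerebellum, pons, hippocampus and the entorhinal, frontal, motor, posterior parietal, prefrontal and visual cortex. The rats were Sprague Dawley, a common outbred laboratory stock, with post-pubertal males and females whose age is not given. Whole brains of 14 females and 15 males, ovaries of the 14 females and sperm of the 15 males gave 58 rat libraries. The design text calls the rat sperm material seminal fluid. No genotype, drug or time point was compared in either species. Each animal gave 1 library per tissue, and how the sheep died is not given in the sources used here, whereas the rats were freshly euthanized.

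In a resting neuron these genes are nearly silent. Synaptic activity lets calcium in and activates the ERK kinases, which switch on the factors SRF with its partners and CREB at the promoters, and messenger RNA builds up and decays again within about an hour or so. In brain tissue the genes are therefore widely used as marks of recently active neurons, although handling, death and tissue processing are known to raise them too, and non-neuronal cells use most of them after growth factors or stress. FOS, FOSB and JUNB make the AP-1 transcription factor, EGR1, EGR2 and EGR4 are zinc finger factors, and NR4A1 and NR4A3 are nuclear receptors that act without a known hormone. NPAS4 is a transcription factor that responds to calcium and is found mainly in neurons, and ARC is a protein of the synapse that takes part in removing AMPA receptors. 

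The promoters are shown because the binding sites for CREB are what these genes are best known to share. RefSeq annotation of the rat build GRCr8 gave a position for all 10 genes and a promoter window for 7 of them, not for Fos, Arc or Nr4a3. Windows of 250 bases before the annotated start were searched on both strands for TGACG, the core shared by full and shortened cAMP response elements. The core was in 5 of the 7 windows, those of Egr1, Egr2, Egr4, Junb and Nr4a1, and in 18.2% of 33469 rat windows. The windows of Egr2, Junb, Egr4 and Nr4a1 held 62.0%, 66.0%, 68.0% and 74.8% G and C, and the rat windows were not matched for base content. The full element TGACGTCA, which contains that core, was in none of the 7 and in 1.59% of all. A CArG box, the site of SRF, was found in the windows of Egr1 and Egr2 and in 1.5% of all. The AP-1 site TGANTCA (6.34% of all windows) and the NR4A site AAAGGTCA (1.24%) were in none of the 7, and the EGR site GCGNGGGCG (4.29%) was in that of Nr4a1. A match is a run of letters and not a measured binding site. Below, 5′ to 3′ on the strand of the gene, capitals mark TGACG on either strand and, in Egr2, also the CArG box.
Egr4, chr4:119607818-119608067, minus strand: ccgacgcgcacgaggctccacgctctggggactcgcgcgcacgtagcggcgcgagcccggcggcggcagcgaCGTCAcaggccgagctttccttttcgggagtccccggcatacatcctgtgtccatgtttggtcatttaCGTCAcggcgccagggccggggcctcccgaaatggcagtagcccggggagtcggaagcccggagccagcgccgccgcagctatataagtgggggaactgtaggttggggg
Junb, chr19:40080876-40081125, plus strand: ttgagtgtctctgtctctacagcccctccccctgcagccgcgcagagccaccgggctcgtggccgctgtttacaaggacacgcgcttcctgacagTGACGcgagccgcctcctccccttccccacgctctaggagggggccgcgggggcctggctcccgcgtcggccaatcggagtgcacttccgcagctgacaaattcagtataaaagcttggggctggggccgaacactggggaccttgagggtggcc
Nr4a1, chr7:134259888-134260137, plus strand: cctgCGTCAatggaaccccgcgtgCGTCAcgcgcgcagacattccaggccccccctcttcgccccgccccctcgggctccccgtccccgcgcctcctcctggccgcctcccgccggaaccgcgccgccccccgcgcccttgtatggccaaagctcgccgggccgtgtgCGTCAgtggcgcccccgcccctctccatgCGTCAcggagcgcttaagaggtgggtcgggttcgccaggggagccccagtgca
Egr2, chr20:21054501-21054530, minus strand: ctcagtCCATATATGGgcagcgaCGTCAcg
The Egr4 window held 2 cores, 178 and 110 bases before the start, and that of Nr4a1 held 4, at 246, 226, 82 and 53 bases. Junb had 1 core at 155 bases. In the stretch of Egr2, the CArG box began 83 and the core 66 bases before the start. The windows of Egr4 and Junb lie outside the annotated gene, while those of Nr4a1 and Egr2 lie inside it because another annotated start is further upstream. 

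In GRCr8 the genes were annotated at chr6:110852188-110855054 (Fos), chr1:88082324-88089506 (Fosb), chr19:40081126-40082910 (Junb), chr18:26737078-26740877 (Egr1), chr20:21050149-21055201 (Egr2) and chr4:119605358-119607817 (Egr4). Arc was at chr7:108444959-108448413, Nr4a1 at chr7:134247153-134268044, Nr4a3 at chr5:67157141-67198287 and Npas4 at chr1:211710640-211728038. Non-coding entries overlap Fosb, Arc and Nr4a3, and whether reads were counted by strand is not given in the sources used here, so the rat counts of these 3 genes are less certain. No sheep annotation was used.

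Levels are counts per 1000000 (CPM) scaled by trimmed mean of M values (TMM) factors, given as mean ± SD over libraries, and they were not compared between genes because transcript lengths were not used. Some libraries stood apart. Rat brains 1 (a female) and 4 (a male) held 86.9% and 83.1% of their counts in ribosomal RNA entries and had TMM factors of 0.0690 and 0.126. Sheep sperm libraries held 13698889 to 65146176 counts, of which 22.4% to 85.2% fell in 4 entries with placeholder symbols, and had factors of 0.124 to 0.343. Rat sperm 7, 16 and 17 had few genes with low counts. Of their genes with any count, 6.17%, 3.36% and 3.53% held 10 counts or fewer, against 16.8% to 32% in the other 12 rat sperm libraries, so a count of 0 in these 3 may not mean what it means elsewhere. Neuron markers (5 of 5 genes in the table) summed to 433 to 3890 CPM in pons, 3495 to 3947 CPM in cerebellum and 3246 to 4872 CPM in rat brain, and granulosa markers (5 of 5) to 826 to 3856 CPM in ovary. With detection set at 1 CPM or more, by plain totals, in at least 80% of a group's libraries, 10 of 10 members were detected in rat brain and in 7 of the sheep regions, 9 in prefrontal cortex, 8 in cerebellum and 7 in pons. The same rule found 6 in ovary, 6 in sheep sperm and 4 in rat sperm. Of all genes in the tables, it passed 46.9% over the sheep brain libraries, 39.4% over the rat brains, 37.9% in ovary, 23.3% in sheep sperm and 32.1% in rat sperm.

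Among the sheep regions, the pons and the cerebellum had low levels of ARC and EGR2, pons was also called lower for EGR1, EGR4 and NPAS4, and cortical regions and basal ganglia had the highest ARC, EGR2 and EGR4. FOS was the 1 member called higher in pons. The 10 contrasts of 1 region with the average of the remaining 9 were run in edgeR (quasi-likelihood), and calls needed both a Benjamini-Hochberg adjusted p below 0.05 and a log2 fold change of 1 or more in size. Of 100 tests of a member in a region, 11 were called higher and 10 lower. In pons 1 member was called higher and 6 lower, against 9.66% and 9.02% of the 21147 genes tested. In cerebellum 0 were higher and 4 lower, against 9.35% and 19.5%. Visual cortex had 3 higher (1.87% of all genes) and 0 lower (0.251%). In basal ganglia, 2 were higher (5.54%) and 0 lower (4.75%), as in motor cortex (1.51% and 0.128%) and posterior parietal cortex (2.2% and 0.454%). Frontal cortex had 1 higher (2.36%) and 0 lower (0.402%). No member was called in entorhinal cortex (2.23% of all genes higher and 0.0142% lower), hippocampus (3.46% and 1.15%) or prefrontal cortex (1.75% and 0.705%). There, edgeR gave an unadjusted p below 0.05 for 2, 4 and 1 members and DESeq2 an adjusted one for 0, 1 and 1. The percentages are for calls with the fold minimum, and no share of all genes by p alone is given to set beside these counts. Leaving out 1 sheep gave edgeR calls in these regions, of EGR1 lower (-1.60) and NR4A3 higher (1.07) in hippocampus without 699, ARC higher in entorhinal cortex without 687 (1.23) and NR4A3 lower in prefrontal cortex without 694 (-1.87). Bulk tissue was sequenced, so fewer cells of a type and less RNA per cell cannot be told apart in any of these values.

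**Figure D1:**
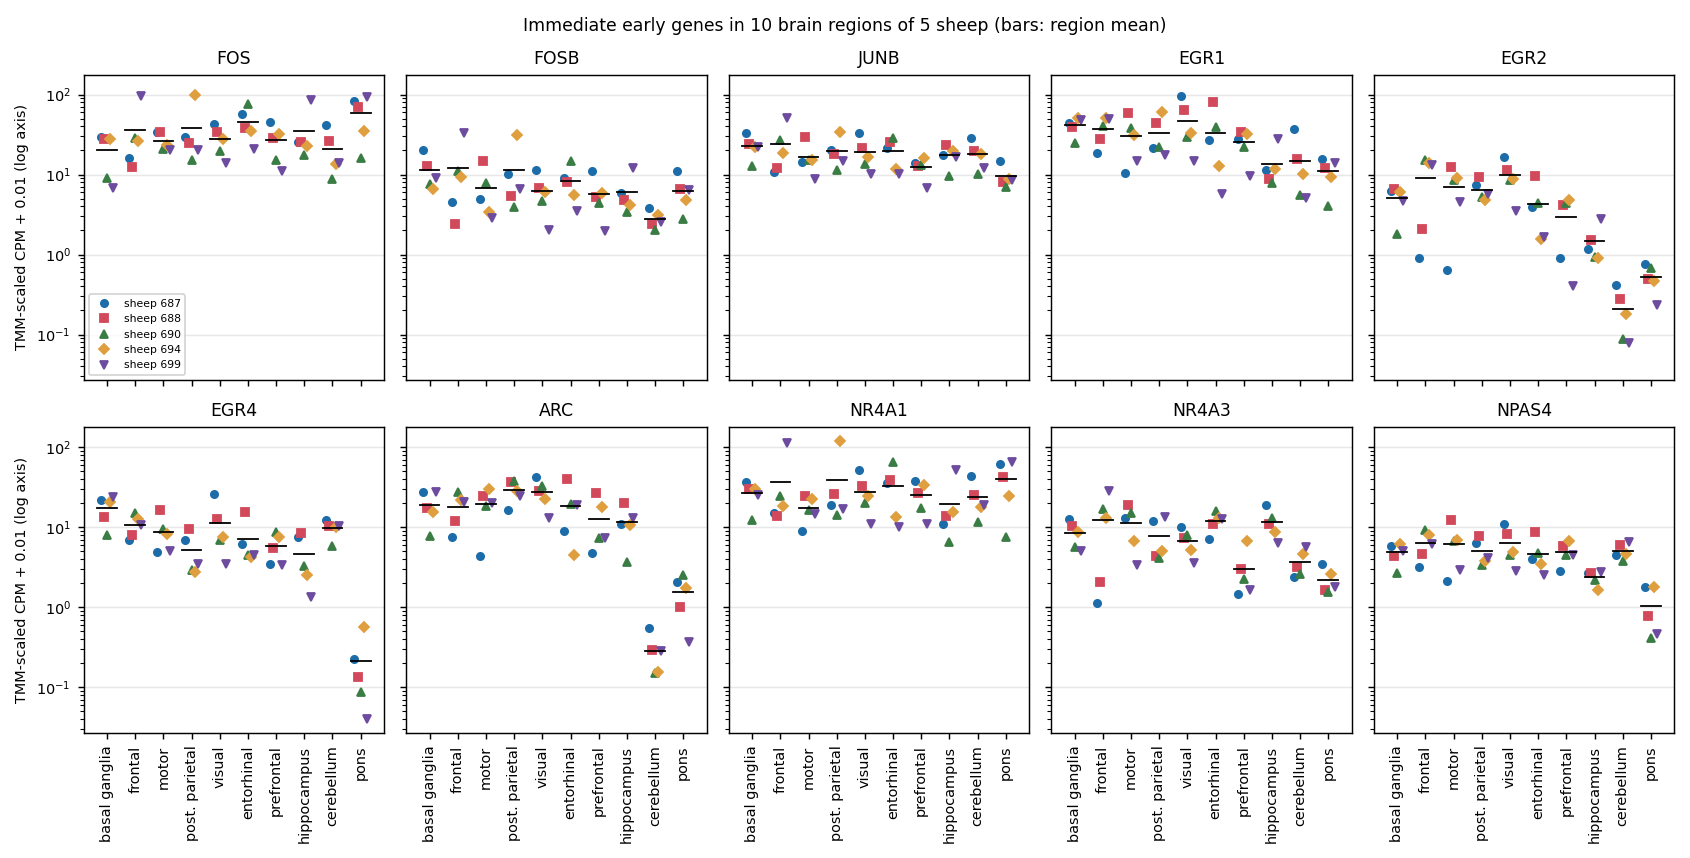
Levels of the 10 immediate early genes (TMM-scaled CPM, log axis) in the 10 brain regions of 5 sheep, with 1 point per library, a small constant added and a bar at each region mean. ARC spans from 0.275 CPM in cerebellum to 28.9 CPM in posterior parietal cortex, whereas NR4A1 spans from 17.5 to 40.3 CPM.

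The AP-1 genes had 2 calls over the regions, 1 for FOS and 1 for FOSB. In pons FOS was at 82.9, 69.1, 16.1, 34.8 and 94.1 CPM in sheep 687, 688, 690, 694 and 699, and in basal ganglia, the lowest region, at 29.8, 27.5, 9.01, 28.0 and 6.69 CPM. These ranges overlap. FOS was called higher in pons (log2 fold change 1.04 ± 0.37 SE, edgeR adjusted p = 0.0178), a call that ended when 687, 688 or 699 was left out (0.99, 0.97 and 0.82) or the animal was a block (0.96, adjusted p = 0.0256, edgeR). FOSB, whose truncated form is a long-lived AP-1 partner, was at 3.82, 2.41, 2.04, 3.12 and 2.54 CPM in cerebellum, where it was called lower (-1.53 ± 0.47, adjusted p = 0.00518, edgeR). Its highest mean was in frontal cortex, at 4.56, 2.41, 11.2, 9.28 and 33.3 CPM, so that 1 animal, 699, set that mean (12.1 ± 12.3 CPM, and 6.85 ± 4.06 over the other 4). JUNB, which often restrains the related JUN, had no call in any region and ran from 9.48 ± 3.08 CPM in pons to 23.9 ± 16.6 in frontal cortex (17.1 ± 7.34 without 699).

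Over all regions, in the order of their means, FOS was at pons (59.4 ± 32.9), entorhinal cortex (45.5 ± 21.5), posterior parietal cortex (37.9 ± 35), frontal cortex (36.1 ± 34.8), hippocampus (35.2 ± 27.8), visual cortex (27.8 ± 11.7), prefrontal cortex (26.7 ± 13.9), motor cortex (26.4 ± 6.91), cerebellum (20.8 ± 13.1) and basal ganglia (20.2 ± 11.3) CPM (n = 5 each). FOSB ran through frontal cortex (12.1 ± 12.3), posterior parietal cortex (11.5 ± 11.4), basal ganglia (11.3 ± 5.66), entorhinal cortex (8.22 ± 4.27), motor cortex (6.80 ± 4.91), pons (6.29 ± 3.09), visual cortex (6.20 ± 3.45), hippocampus (6.10 ± 3.51), prefrontal cortex (5.72 ± 3.29) and cerebellum (2.79 ± 0.694) CPM, with posterior parietal cortex at 6.53 ± 2.7 without 694. JUNB ran through frontal cortex (23.9 ± 16.6), basal ganglia (23.0 ± 7.35), posterior parietal cortex (19.6 ± 8.54), entorhinal cortex (19.5 ± 8.24), visual cortex (19.0 ± 8.79), cerebellum (17.8 ± 7.39), hippocampus (17.3 ± 5.16), motor cortex (16.4 ± 7.57), prefrontal cortex (12.6 ± 3.51) and pons (9.48 ± 3.08) CPM. FOS and JUNB put pons at opposite ends of their orders, and without the 1 library that stood apart in each, FOS was at 20.8 ± 7.65 CPM in frontal cortex, 22.8 ± 3.66 in hippocampus and 22.5 ± 6.18 in posterior parietal cortex (n = 4).

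The zinc finger genes separated the regions more. EGR1, a general activity reporter in cortex, was at 15.4, 12.1, 4.01, 9.24 and 14.1 CPM in pons and at 94.7, 63.6, 29.5, 33.5 and 14.8 CPM in visual cortex. Sheep 699 had nearly the same level in both regions, and the 4 others were higher in visual cortex. The call of lower EGR1 in pons (-1.33 ± 0.45, adjusted p = 0.0135, edgeR) was lost without 690 or 694, and with the animal as a block EGR1 was called lower in cerebellum too (-1.05, adjusted p = 0.0349, edgeR). EGR2, also known for its role in myelinating Schwann cells, was at 0.412, 0.266, 0.0776, 0.170 and 0.0679 CPM in cerebellum, below every library outside pons and cerebellum apart from 1 of prefrontal cortex. It was called lower there (-4.29 ± 0.68, adjusted p = 6.09e-07) and in pons (-2.71 ± 0.60, adjusted p = 0.000198), and higher in visual (1.95 ± 0.39, adjusted p = 0.000753), frontal (1.83 ± 0.39, adjusted p = 0.00176), motor (1.41 ± 0.41, adjusted p = 0.0372) and posterior parietal cortex (1.31 ± 0.41, adjusted p = 0.0317), all by edgeR. Within frontal cortex EGR2 was uneven, at 0.887, 2.05, 15.2, 14.0 and 13.2 CPM, with 687 and 688 low and the other 3 high. The call was lost there without 690 (1.53), and in motor (1.21 to 1.47) and posterior parietal cortex (1.26 to 1.41) without 688, 690, 694 or 699. The motor cortex value had an adjusted p of 0.0509 in edgeR with the animal as a block.

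EGR4, of the same family, was nearly absent from pons, at 0.217, 0.124, 0.0770, 0.557 and 0.0300 CPM, while basal ganglia had 21.8, 13.5, 7.93, 20.7 and 24.0 CPM. The groups lie far apart, with basal ganglia highest and pons lowest of the 10 means. Calls were lower in pons (-5.28 ± 0.58, adjusted p = 3.33e-10) and higher in basal ganglia (1.82 ± 0.31, adjusted p = 7.97e-06) and visual cortex (1.09 ± 0.33, adjusted p = 0.0359), by edgeR. The visual cortex value rested on sheep 687 (26.4 CPM, the others 3.45 to 12.8) and was 0.56 without it. EGR4 in cerebellum was 9.82 ± 2.46 CPM, in contrast to ARC and EGR2 in the same 5 libraries. With the animal as a block the visual cortex call was lost (0.98) and EGR4 was called higher in frontal cortex (1.13, adjusted p = 0.0144, edgeR).

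The order of means for EGR1 was visual cortex (47.2 ± 31.9), basal ganglia (41.3 ± 10.2), frontal cortex (37.5 ± 14.0), entorhinal cortex (33.2 ± 29.6), posterior parietal cortex (32.9 ± 18.3), motor cortex (30.6 ± 19.3), prefrontal cortex (25.2 ± 9.90), cerebellum (14.6 ± 13.1), hippocampus (13.5 ± 8.34) and pons (11.0 ± 4.54) CPM. For EGR2 it was visual cortex (9.77 ± 4.77), frontal cortex (9.07 ± 6.99), motor cortex (7.01 ± 4.55), posterior parietal cortex (6.47 ± 1.90), basal ganglia (5.07 ± 1.97), entorhinal cortex (4.24 ± 3.26), prefrontal cortex (2.93 ± 2.11), hippocampus (1.45 ± 0.777), pons (0.518 ± 0.206) and cerebellum (0.199 ± 0.144) CPM, and for EGR4 basal ganglia (17.6 ± 6.69), visual cortex (11.4 ± 8.99), frontal cortex (10.6 ± 3.33), cerebellum (9.82 ± 2.46), motor cortex (8.82 ± 4.69), entorhinal cortex (7.03 ± 4.91), prefrontal cortex (5.75 ± 2.46), posterior parietal cortex (5.15 ± 2.99), hippocampus (4.63 ± 3.18) and pons (0.201 ± 0.211) CPM. Visual cortex was among the leading regions for all 3, and pons was last for EGR1 and EGR4 and next to last for EGR2. Cerebellum was last for EGR2 but in the upper part of the order for EGR4.

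ARC had the widest range of the 10 genes between region means, 105-fold. In posterior parietal cortex it was at 16.5, 37.2, 38.0, 28.5 and 24.3 CPM and in cerebellum at 0.536, 0.280, 0.142, 0.144 and 0.272 CPM. All 5 cortical values exceed all 5 cerebellar ones by over an order of magnitude. By edgeR, ARC was called lower in cerebellum (-5.70 ± 0.60, adjusted p = 5.05e-11) and pons (-2.89 ± 0.48, adjusted p = 3.11e-06), and higher in posterior parietal (1.78 ± 0.32, adjusted p = 0.000213) and visual cortex (1.70 ± 0.32, adjusted p = 0.000379), motor cortex (1.15 ± 0.34, adjusted p = 0.0430) and basal ganglia (1.14 ± 0.34, adjusted p = 0.00827). The motor call was lost without 688, 690, 694 or 699 and the basal ganglia call without 687 or 699. With the animal as a block, ARC was also called higher in frontal cortex (1.03, adjusted p = 0.0488, edgeR). In pons the levels were 2.08, 1.01, 2.51, 1.73 and 0.360 CPM.

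The nuclear receptors differed from each other. NR4A1 was not called in any region, and its highest mean, in pons, came from 61.9, 42.4, 7.64, 24.5 and 65.0 CPM, a spread that covers most of the brain libraries. NR4A3 was at 3.45, 1.62, 1.56, 2.61 and 1.76 CPM in pons, where it was called lower (-1.78 ± 0.45, adjusted p = 0.00109, edgeR). In frontal cortex, which had its highest mean, the values were 1.13, 2.07, 16.7, 12.9 and 28.7 CPM, and 687 and 688 were as low as the pons. Without 699 its mean was 8.20 ± 7.79 CPM, below those of entorhinal cortex, hippocampus, motor cortex and basal ganglia. The call of lower NR4A3 in cerebellum (-1.0 ± 0.42, adjusted p = 0.0360, edgeR) lay at the fold minimum and was lost without 687, 688, 690 or 694. NPAS4 was at 1.77, 0.758, 0.401, 1.77 and 0.450 CPM in pons, where it was called lower (-2.21 ± 0.36, adjusted p = 1.62e-06, edgeR), and at 10.9, 8.33, 4.51, 4.86 and 2.81 CPM in visual cortex, above every pons library.

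ARC ran through posterior parietal cortex (28.9 ± 9.04), visual cortex (27.8 ± 11.2), motor cortex (19.6 ± 9.63), basal ganglia (19.2 ± 8.67), entorhinal cortex (18.4 ± 13.7), frontal cortex (17.9 ± 7.95), prefrontal cortex (12.8 ± 9.19), hippocampus (11.6 ± 5.83), pons (1.54 ± 0.858) and cerebellum (0.275 ± 0.160) CPM. NR4A1 ran through pons (40.3 ± 24.5), posterior parietal cortex (39.1 ± 45.1), frontal cortex (36.9 ± 42.3), entorhinal cortex (32.7 ± 22.5), visual cortex (27.9 ± 15.4), basal ganglia (26.8 ± 9.15), prefrontal cortex (25.3 ± 11.1), cerebellum (23.6 ± 12.3), hippocampus (19.8 ± 18.3) and motor cortex (17.5 ± 6.36) CPM, with SDs as large as the means in frontal and posterior parietal cortex, where 1 library each stood apart (18.1 ± 4.91 and 19.1 ± 5.15 CPM over the other 4). Hippocampus was at 11.7 ± 3.95 CPM without 699, below motor cortex. The order for NR4A3 was frontal cortex (12.3 ± 11.4), entorhinal cortex (12.0 ± 3.31), hippocampus (11.7 ± 4.87), motor cortex (11.4 ± 6.30), basal ganglia (8.50 ± 3.20), posterior parietal cortex (7.80 ± 4.58), visual cortex (6.81 ± 2.51), cerebellum (3.68 ± 1.44), prefrontal cortex (3.00 ± 2.16) and pons (2.2 ± 0.819) CPM and that for NPAS4 visual cortex (6.29 ± 3.28), frontal cortex (6.27 ± 2.44), motor cortex (6.22 ± 4.08), cerebellum (5.10 ± 1.14), posterior parietal cortex (5.08 ± 1.89), prefrontal cortex (4.86 ± 1.49), basal ganglia (4.83 ± 1.40), entorhinal cortex (4.68 ± 2.39), hippocampus (2.37 ± 0.468) and pons (1.03 ± 0.689) CPM. Pons was last for both NR4A3 and NPAS4.

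For 5 members no neighbours in the order of region means differed by more than their SDs, and for the other 5 at most 2 steps did. Of the 9 steps from the highest to the lowest region, 2 exceeded the SDs for EGR2 and 2 for ARC (hippocampus to pons, and pons to cerebellum), 1 for EGR4 and 1 for NPAS4 (hippocampus to pons), 1 for NR4A3 (visual cortex to cerebellum) and 0 for the other 5. The region with the highest mean was visual cortex for EGR1 (47.2 CPM), EGR2 (9.77 CPM) and NPAS4 (6.29 CPM), pons for FOS (59.4 CPM) and NR4A1 (40.3 CPM), frontal cortex for FOSB, JUNB and NR4A3, basal ganglia for EGR4 and posterior parietal cortex for ARC. Only FOS and EGR4 kept this region first whichever of its 5 libraries was left out, and the other 8 members lost the first place without 1 library, such as EGR1 in visual cortex without 687 (35.4 CPM, below the 41.3 of basal ganglia). The share of the variance of log2 levels over the 50 libraries that lay between regions was 81.3% for ARC, 75.2% for EGR4, 64.8% for EGR2 and 59.0% for NPAS4. It was 24.3% for FOS and 10.9% for NR4A1, whose remaining variance lay mostly within regions and not between animals (13.0% and 8.92% between animals). Over all genes the median share was 49.0% between regions and 8.03% between animals. 

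Cell type markers moved with the regions too. The summed excitatory neuron markers were at 21.1 to 215 CPM in pons, with a median of 101 CPM, and at 358 to 448 CPM in cerebellum, with a median of 390 CPM, against medians of 2699 CPM in posterior parietal and 2638 CPM in visual cortex. In basal ganglia, where EGR4 was highest, their median was 878 CPM. Oligodendrocyte markers had medians of 45766 CPM in pons and 2977 CPM in cerebellum. The part of cell composition in the regional levels was not tested.

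Other genes of the same response were read from lists chosen with results of these data in view. In pons, 2 of 30 other fast-response genes were called higher (ATF3, a stress factor, at 1.5 ± 0.51, and CSRNP1 at 1.05 ± 0.17) and 6 lower, led by EGR3 (-4.34 ± 0.44) and PLK2 (-2.34 ± 0.28). The list's median log2 fold change there was -0.06 against 0.03 over all genes. Of all genes tested in pons, 9.66% were called higher and 9.02% lower. Of 15 late activity-response genes, which are mostly synaptic or secreted proteins, 0 were higher and 7 lower in pons (median -0.92), among them HOMER1 (-2.46 ± 0.26), a scaffold of glutamate receptors. Among the 10 feedback genes of the ERK pathway, 0 were higher and 7 lower (median -1.32), with DUSP5, an ERK phosphatase, at -2.41 ± 0.48. Of 26 upstream regulators, 0 were higher and 9 lower (median -0.28), among them the factor MEF2C at -3.17 ± 0.41 and the kinase CAMK4 at -2.19 ± 0.18. Inducible heat shock genes went the other way in pons, with 3 of the 7 tested higher and 0 lower (BAG3 at 2.02 ± 0.13).

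EGR3 followed ARC and EGR2 in the cerebellum, where it was called lower (-5.10 ± 0.46), as was PLK2 (-4.04 ± 0.32). There, 1 of 30 other fast-response genes was higher (BTG2, an antiproliferative factor, at 1.23 ± 0.33) and 7 were lower (median -0.29 against -0.04 over all genes). The shares of all genes in cerebellum were 9.35% higher and 19.5% lower. The late genes split in cerebellum, 3 higher and 5 lower, with BDNF, a neuronal growth factor, at 2.07 ± 0.33 and PTGS2, the inducible cyclooxygenase, at -4.39 ± 0.79. EGR3 was called higher in basal ganglia (1.58 ± 0.26) and in visual (1.68 ± 0.26), frontal (1.60 ± 0.26), motor (1.28 ± 0.27) and posterior parietal cortex (1.14 ± 0.27). In posterior parietal cortex 5 of the 30 fast-response genes were called higher and 1 lower, against 2.2% and 0.454% of all genes.

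Within regions the members rose and fell together. After each region's mean was subtracted, the Pearson correlation of log2 levels over the 50 libraries was positive for 45 of 45 pairs, from 0.111 to 0.897 with a median of 0.529. These are given as a description, since the libraries share animals and depth. Over 21137 other genes, the median r with a member was -0.00944 (FOSB) to 0.0169 (EGR1). The share of these genes with a higher r than the median fellow member was 8.53% for EGR4, 4.88% for FOS and 0.0331% for EGR1. The 6 closest pairs were all among FOS, FOSB, JUNB, EGR1 and NR4A1, led by FOS with NR4A1 (r = 0.897), FOSB with JUNB (0.837) and FOSB with NR4A1 (0.830). Next came EGR4 with NPAS4 (0.791) and EGR2 with NPAS4 (0.789). FOS was nearly unrelated to ARC (0.111) and EGR4 (0.113). Over the 10 region means the pairs ran from -0.804 to 0.935, and 33 of 45 were positive. Over the 5 animal means 32 were positive.

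**Figure D2:**
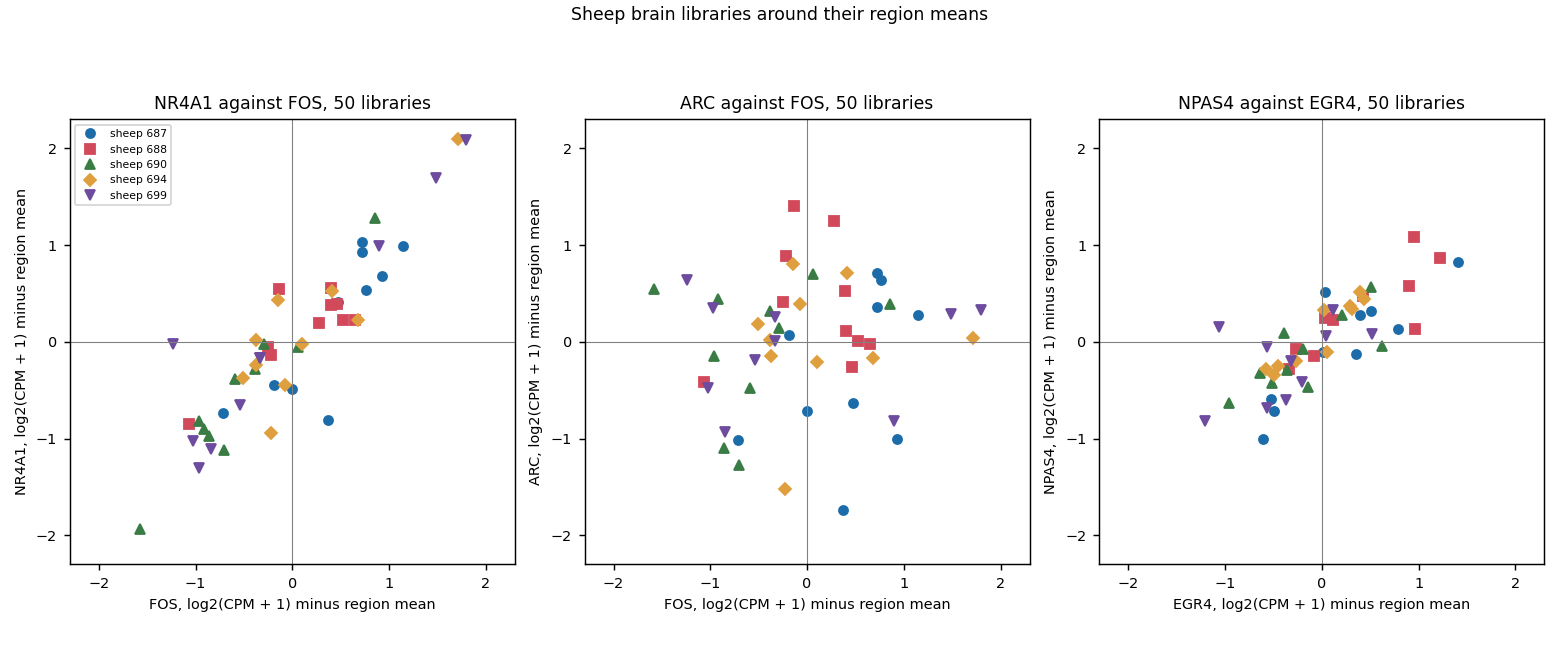
Deviation of each member from its region mean (log2 scale) for 3 pairs of genes in 50 sheep brain libraries, 1 point per library and 1 symbol per sheep. FOS and NR4A1 lie along a line (r = 0.897), as do EGR4 and NPAS4 (r = 0.791), whereas FOS and ARC are scattered (r = 0.111).

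A set of 3 libraries stood apart in FOS, FOSB and NR4A1. In frontal cortex of sheep 699, NR4A1 was at 112 CPM and the other 4 sheep were at 13.9 to 24.8 CPM. In hippocampus of the same animal NR4A1 was at 51.9 CPM (others 6.53 to 15.6), and in posterior parietal cortex of 694 at 119 CPM (others 14.1 to 26.2). ARC did not follow, with 20.8 CPM in frontal cortex of 699, between the 7.57 and 27.3 CPM of the others. Endothelial markers were above their region mean by 1.04, 1.27 and 1.83 (log2) in these libraries and neuron markers below it by 0.59, 0.79 and 0.45, and their part was not tested. Without the 3 libraries the median correlation was 0.590 and 45 of 45 pairs were positive (0.0730 to 0.844). FOS with NR4A1 was then at 0.835, FOS with EGR4 at 0.338 and FOS with ARC at 0.0730.

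Over all 50 libraries, the members differed in their relation to markers within regions. EGR4 had r = 0.507 with the summed neuron markers, -0.662 with microglia and -0.543 with endothelium. FOS had -0.309 with neuron and 0.238 with endothelium, and NR4A1 had 0.335 with endothelium. In visual cortex of 687, motor cortex of 688, prefrontal cortex of 694 and pons of 687, all 10 members were above the region mean. All 10 were below it in basal ganglia of 690, frontal cortex of 687 and 688, and prefrontal and visual cortex of 699. A sheep could thus be high in 1 region and low in another.

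No member was called in any sheep over the whole set of regions. With each animal compared with the average of the other 4, 0 of 10 members were called in any animal by edgeR, against 1.39% (687), 1.63% (688), 1.95% (690), 1.71% (694) and 1.92% (699) of all genes. At an unadjusted p below 0.05 there were 2 in 688 (EGR4 at 0.59 ± 0.25 and NPAS4 at 0.45 ± 0.21), 1 in 690 (FOS at -0.76 ± 0.32), 1 in 699 (EGR4 at -0.61 ± 0.27) and 0 in the others. DESeq2 gave 0 by adjusted p, and 2, 2 and 1 unadjusted in 688, 690 and 699. No share of all genes by unadjusted p is given to set beside these counts. Neuron markers, averaged over the log2 deviations of the single genes, were highest in 688 and 687 (0.23 and 0.20 above their region means). They were lowest in 699 (-0.33).

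In whole rat brain all 10 members were measured in every library, and no member was called between the sexes, although the mean of each was higher in males. EGR1 was at 110 ± 22.9 CPM in 14 females and 134 ± 43.8 in 15 males, and ARC at 21.7 ± 9.19 and 30.5 ± 16.5 CPM. FOS was at 11.0 ± 5.69 and 14.1 ± 6.29 CPM, FOSB at 4.41 ± 1.07 and 5.28 ± 1.94, JUNB at 27.2 ± 7.52 and 36.2 ± 13.4, EGR2 at 3.01 ± 1.67 and 5.36 ± 3.12, and EGR4 at 16.1 ± 3.70 and 18.7 ± 5.50. NR4A3 was at 17.1 ± 3.57 and 18.7 ± 4.72 CPM, and NPAS4 at 8.43 ± 4.89 and 8.83 ± 5.87. NR4A1 had the clearest difference, with 15.0, 22.9 and 31.7 CPM as the lowest, median and highest female and 20.6, 35.6 and 64.3 CPM in males, and the ranges overlap. 

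By edgeR 0 members were called higher and 0 lower in females, against 0.0146% and 0.0438% of the 20570 genes tested. All 10 fold changes were negative, against a median of -0.000128 over all genes. The members vary together over these brains, so the 10 signs are not separate results. By edgeR 5 members had an unadjusted p below 0.05 (3 without rat brains 1 and 4, and 5 by DESeq2, of which 1 passed adjustment). The share of all genes at that unadjusted p is not given here. NR4A1 was lower in females by the adjusted p alone (log2 fold change -0.70 ± 0.14, adjusted p = 0.0220, edgeR), below the fold minimum. EGR2 was at -0.83 ± 0.28 (adjusted p = 0.280) and JUNB at -0.41 ± 0.16 (adjusted p = 0.367), by edgeR. With TMM scaling all 10 members were highest in 1 male, rat 9, with ARC at 74.4, EGR1 at 254 and FOS at 29.4 CPM. That library held 34.1% of its counts in ribosomal RNA entries (TMM factor 0.783), and with plain totals it was highest for 0 members, and rat 7 for 8. With TMM scaling female rat 2 was lowest for EGR2, EGR4, FOS, FOSB and NR4A3, with FOS at 5.32 CPM.

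The members varied together over the 29 rat brains. All 45 pairs were positive, with Pearson r from 0.401 to 0.945 and a median of 0.830. By permutation with Benjamini-Hochberg adjustment over the 45 pairs, 45 passed 0.05 by Pearson and 41 by Spearman. The share of all gene pairs that pass is not given here. Over 20560 other genes, the median r with a member was -0.0187 (EGR2) to 0.00299 (NR4A3). Of these genes, 9.87% had a higher r with NR4A3 than its median fellow member had. For the other members this share was 0.00486% to 0.0243%. FOSB with EGR4 was closest (r = 0.945, rho = 0.934, adjusted permutation p = 1.3e-05 and 1.6e-05, and r = 0.917 without the 2 rats farthest in FOSB). Within the sexes that r was 0.902 in females and 0.965 in males. EGR1 with EGR2 had r = 0.933 and rho = 0.930, and FOS with EGR2 r = 0.904 and rho = 0.919. FOS with ARC, the loosest pair in the sheep regions, had r = 0.851 here, and rats were sampled as whole brains with another kit, so the species were not compared by test.

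NR4A3 was the loosest member in rat. Its r with the other 9 ran from 0.401 with NPAS4 to 0.724 with ARC (rho = 0.578, adjusted permutation p = 6.3e-05 for r and 0.00159 for rho, and r = 0.652 without the 2 farthest rats). With EGR1 it was r = 0.433 and rho = 0.262, and 0.155 without 2 rats, so that the relation rested on those animals. The median over the 45 pairs was 0.848 without rat brains 1 and 4 and 0.824 with the sexes centred. With plain library totals it was 0.918. On that scale the ribosomal share of brains 1 and 4 lowers all members together, with EGR1 at 8.26 and 19.3 CPM. The 0.918 can therefore not be read as a closer relation between members.

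**Figure D3:**
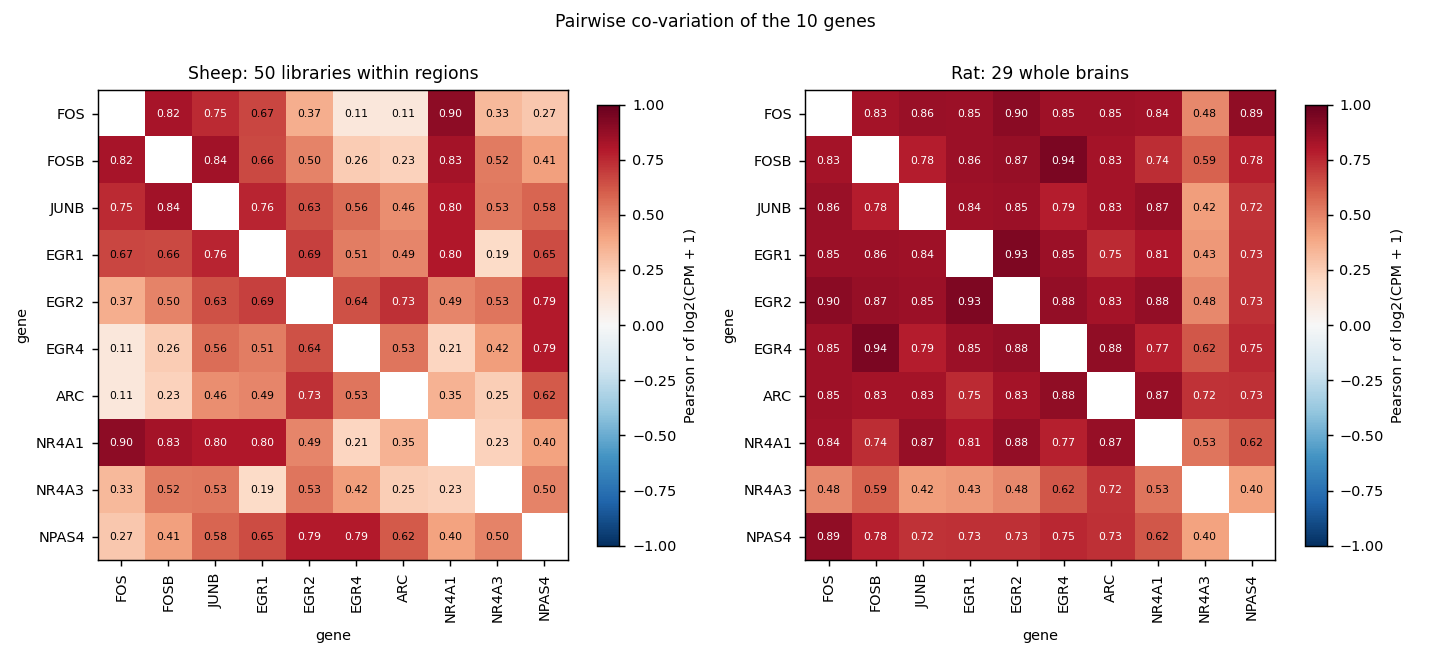
Pearson correlations between the 10 members, in sheep over 50 libraries after region means were subtracted and in rat over 29 whole brains. Rat pairs lie between 0.401 and 0.945 and sheep pairs between 0.111 and 0.897.

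Genes most like the members were ranked by their mean r with the 10, leaving out members and entries with placeholder symbols. Over 29 rat brains the first were DUSP1 (0.811), DUSP6 (0.766) and BTG2 (0.760), followed by PLK2 (0.732), SPATA2L (0.694), IER5 (0.689), RASL11A (0.685), DNAJB5 (0.675), SRF (0.670) and CCN1 (0.666). DUSP1 and DUSP6 are phosphatases that switch MAP kinases off. Over the 50 sheep libraries within regions they were MIDN (0.575), KLF10 (0.569), TAMALIN (0.555), PPP1R15A (0.528) and IRF2BPL (0.527), then SIK1 (0.520), HECTD2 (0.516), TET3 (0.515), PER2 (0.509) and ADGRD1 (0.507). The median mean r of the 30 other fast-response genes was 0.347 in sheep and 0.385 in rat, that of the 15 late genes 0.284 and 0.139, and that of heat shock genes -0.122 and -0.0407, against 0.00807 and -0.0128 over all genes.

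In sheep sperm, 6 members were called higher than in brain by edgeR, and the synaptic gene ARC and EGR4 were nearly absent. FOS was at 481, 579, 323, 1329 and 201 CPM in sperm of 687, 688, 690, 694 and 699, and no brain library exceeded 99.8 CPM. FOSB was at 110, 161, 59.5, 179 and 96.5 CPM, again above every brain library. JUNB varied most between animals, at 28.2, 2107, 298, 883 and 149 CPM, and EGR1 was at 27.7, 274, 163, 554 and 11.8 CPM. Sperm of 687 lay within the range of brain for both genes and sperm of 699 for EGR1. 

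In the contrast of sperm with the average over regions, edgeR called 6 members higher (33.1% of the 21859 genes tested) and 2 lower (41.1%). JUNB had a log2 fold change of 5.50 ± 0.27 (adjusted p = 6.77e-25), FOS 4.36 ± 0.29 (adjusted p = 3.05e-19), FOSB 4.25 ± 0.29 (adjusted p = 3.93e-19) and NR4A3 4.12 ± 0.31 (adjusted p = 4.11e-17). EGR2 was at 3.69 ± 0.38 (adjusted p = 1.36e-12) and EGR1 at 3.17 ± 0.36 (adjusted p = 1.90e-11). NR4A1 (0.27 ± 0.44, adjusted p = 0.572) and NPAS4 (-0.57 ± 0.43, adjusted p = 0.216) were not called by edgeR. These tests treat all 55 libraries as separate, so the SEs and p-values do not measure the spread over the 5 sheep. Sperm minus own brain ran from 0.508 to 6.77 for JUNB and from -0.410 to 4.44 for EGR1 (log2, TMM scaling). Scaling by plain library totals, without TMM factors, moved the median of all genes by -2.42 (log2). It kept the 6 higher calls at 1.07 to 3.32 and called NR4A1 (-2.04) and NPAS4 (-3.32) lower. No member then lay outside the range of the brain libraries. Against each sheep's own brain by plain totals, EGR1 and EGR2 were each higher in sperm of 3 sheep and lower in 2. Their means were -0.13 and 0.40 (log2). By the same measure JUNB was higher in 4 sheep and lower in 1. 

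ARC had 0, 21, 0, 3 and 0 counts in sheep sperm and EGR4 0, 0, 0, 9 and 0. Both overlapped the range of the brain libraries. ARC in sperm of 688 (1.51 CPM) was above every cerebellum library, and EGR4 in sperm of 694 (0.888 CPM) was above every pons library. A count of 0 allows up to 3 counts, which is 0.216 to 0.896 CPM in these libraries and covers counting error only. The fitted fold changes (-4.16 ± 0.66, adjusted p = 1.43e-07 for ARC and -4.66 ± 0.73, adjusted p = 1.22e-07 for EGR4, edgeR) depend on the prior count. Neutrophil markers (5 of 5 in the table) summed to 12784 to 141298 CPM in these libraries against 0.167 to 1.37 CPM in brain, and squamous epithelium markers (4 of 5) to 3691 to 74522 against 0.0162 to 2.7 CPM. Markers of spermatids and sperm ran from 165 CPM in 688 to 5814 CPM in 699, and JUNB was highest in 688, where neutrophil markers were highest too, and next highest in 694, where they were at 27619 CPM. The part of these cells in the members' levels was not tested. Of 30 other fast-response genes 29 were higher and 0 lower (median 4.73 against -0.42 over all genes), led by MAFF (11.30 ± 0.19) and DUSP2 (9.69 ± 0.25). Late activity-response genes split into 4 higher and 9 lower. Among all genes tested in sheep sperm, 33.1% were higher and 41.1% lower.

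In rat sperm most members were lower than in brain. EGR2 was the 1 member higher than in male brain, with a lowest, median and highest level of 13.3, 61.4 and 76.5 CPM against 1.98, 4.46 and 14.0 CPM in brain (3.38 ± 0.29, adjusted p = 4.41e-12, edgeR). The ranges overlap at their ends. JUNB did not differ by the test (36.2 ± 11.2 CPM in sperm and 36.2 ± 13.4 in brain, 0.09 ± 0.18, adjusted p = 0.642, edgeR), and its sign turned with the scaling. EdgeR called 1 member higher (27.7% of 20480 genes) and 8 lower (31.5%), and also 1 and 8 without rat sperm 7, 16 and 17. FOS was at 1.37 ± 0.901 CPM in sperm (-3.27 ± 0.47, adjusted p = 2.49e-07) and EGR1 at 9.82 ± 4.87 CPM (-3.68 ± 0.23, adjusted p = 2.60e-15). ARC had 24 counts in all 15 libraries, 9 of them at 0, or 6 of 12 without rats 7, 16 and 17 (-9.57 ± 0.58, adjusted p = 8.99e-16).

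The remaining lower calls in rat sperm, by edgeR, were FOSB (-3.59 ± 0.53, adjusted p = 3.39e-07), EGR4 (-5.35 ± 0.79, adjusted p = 3.58e-07), NR4A1 (-1.77 ± 0.27, adjusted p = 6.60e-07), NR4A3 (-5.38 ± 0.64, adjusted p = 6.14e-09) and NPAS4 (-4.98 ± 0.80, adjusted p = 1.68e-06). Several of these counts came from few animals, with 88 of the FOSB counts in rat 16 and 206 of the NR4A3 counts in rat 15. Rats 14, 7 and 3 held 192, 68 and 30 counts of EGR4, with 0 to 22 in the others, and 71, 53 and 58 of NPAS4. The same 3 rats had the highest spermatid and sperm markers (19262, 14270 and 5839 CPM, others 200 to 4690). Rats 14 and 7 were also highest for summed neuron markers (6.97 and 3.52 CPM), while rat 3 was at 1.49 CPM and the others at 0.0544 to 2.58 CPM. The part of either marker set was not tested. Of the 30 other fast-response genes 14 were higher and 5 lower (median 0.95), with IER3, a survival gene, at 5.19 ± 0.24 and EGR3 at -4.70 ± 0.73. Of 15 late genes 4 were higher and 9 lower, with PTGS2 at 7.79 ± 0.43. Among all genes tested in rat sperm, 27.7% were higher and 31.5% lower.

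**Figure D4:**
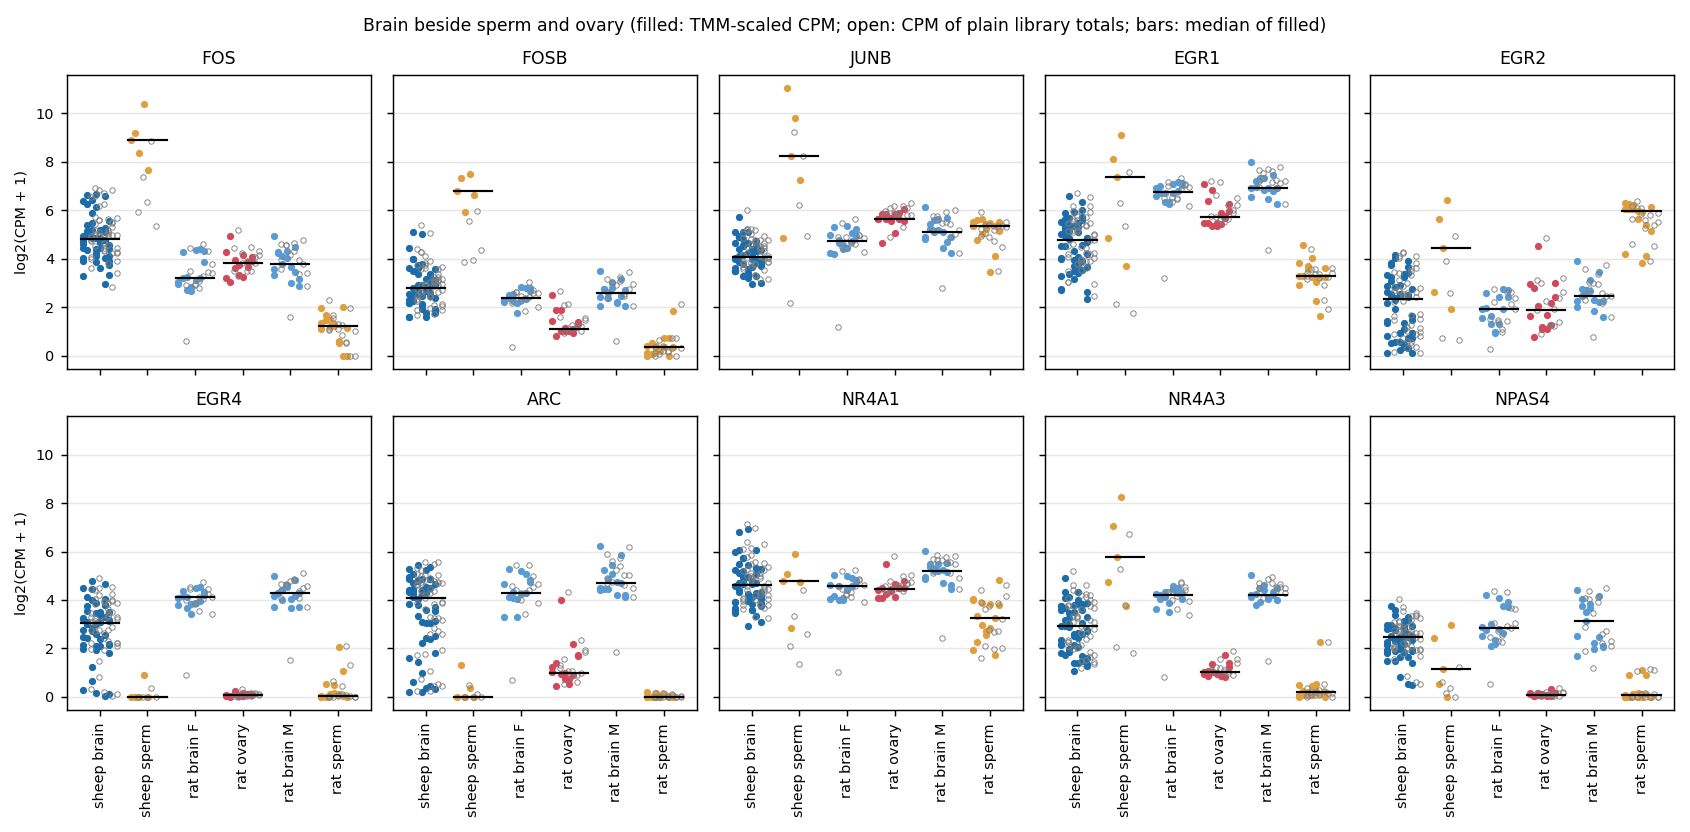
Levels of the 10 members as log2(CPM + 1) in brain, sperm and ovary libraries of both species, 1 filled point per library after TMM scaling, 1 open point with plain totals and bars at the median of the filled points. FOS in sheep sperm (filled points, 201 to 1329 CPM) lies above sheep brain, and in rat sperm it lies below rat brain.

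NR4A1 was inversely related between the brain and the sperm of the same rat. Rat 9 had 64.3 CPM in brain and 2.82 in sperm, and rat 7 had 44.7 and 2.27. At the other end, rat 8 had 23.6 CPM in brain and 27.3 in sperm, and rat 16 had 20.6 and 13.0. Over 15 rats r was -0.844 and rho -0.857 (permutation p = 0.00011 and 0.00013, adjusted p = 0.0022 and 0.0026 over 20 relations of brain with sperm and brain with ovary), and r was -0.884 without the 2 rats farthest from the median. The other 19 relations did not pass. With plain library totals r was -0.501 (permutation p = 0.0345) and rho -0.832. It was -0.868 without rat brain 4, -0.871 without rat sperm 16 and 17, -0.888 without rat sperm 7, 16 and 17 and -0.893 without brain 4 and sperm 16 and 17. NR4A1 in sperm rose with summed neutrophil markers (r = 0.729, rho = 0.725, permutation p = 0.00238 for r, adjusted p = 0.019 and 0.0237 over 8 relations, and 0.716 without 2 rats), which are low in these libraries, at 1.61 to 32.3 CPM. No other of the 8 relations passed adjustment, with macrophage markers next (r = 0.573, adjusted permutation p = 0.101). Without 2 rats, r was 0.647 for the TMM factor, -0.627 for squamous epithelium markers and 0.577 for spermatid and sperm markers. The part of any of these in the relation between organs was not tested.

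**Figure D5:**
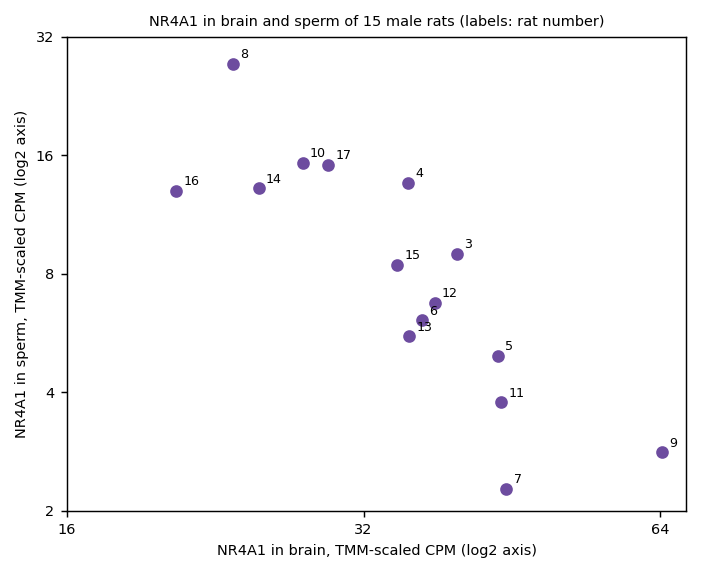
NR4A1 in brain against NR4A1 in sperm of the same 15 male rats (TMM-scaled CPM, log2 axes), 1 point per rat, labelled by its number. Rats with the highest brain level, such as rat 9 (64.3 CPM), have low sperm levels (2.82 CPM).

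In rat ovary 5 members were lower than in brain, among them NPAS4 and ARC, and the other 5 were not called. EGR4 was at 0.0638 ± 0.0482 CPM and NPAS4 at 0.0802 ± 0.0601 CPM over 14 ovaries, with no ovary reaching the lowest female brain (9.67 and 3.33 CPM). NR4A3 was at 1.17 ± 0.434 CPM, without overlap after TMM scaling. With plain totals the ranges of NR4A3 overlapped, with female brain 1 at 0.780 CPM, whereas those of EGR4 and NPAS4 stayed apart. Against the brains of the females, edgeR called 0 members higher (27.7% of 20801 genes) and 5 lower (29.2%). These were EGR4 (-7.92 ± 0.25, adjusted p = 5.38e-23), NPAS4 (-6.67 ± 0.37, adjusted p = 7.42e-17), NR4A3 (-3.86 ± 0.17, adjusted p = 9.46e-20), ARC (-3.23 ± 0.46, adjusted p = 1.42e-07) and FOSB (-1.43 ± 0.23, adjusted p = 1.44e-06). 

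FOS, EGR2 and NR4A1 did not pass the test in ovary. FOS was at 13.6 ± 5.66 CPM (0.32 ± 0.24, adjusted p = 0.205), EGR2 at 4.46 ± 5.47 (0.59 ± 0.43, adjusted p = 0.192) and NR4A1 at 22.0 ± 6.87 (-0.02 ± 0.15, adjusted p = 0.921), by edgeR. The sign for NR4A1 turned without the low-count filter and with upper quartile factors. JUNB at 48.8 ± 10.5 CPM (0.85 ± 0.14, adjusted p = 1.64e-06, edgeR) and EGR1 at 62.6 ± 28.6 (-0.79 ± 0.17, adjusted p = 0.000110, edgeR) passed the adjusted p but not the fold minimum. Ovary 19 stood apart, with EGR2 at 22.0 CPM (others 0.708 to 6.91), ARC at 15.0 (others 0.370 to 3.53) and NR4A1 at 43.3 (others 15.8 to 26.6).

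Over the 14 ovaries 45 of 45 pairs were positive by Pearson, with a median r of 0.490 (0.444 without ovary 19). EGR4 held 0 to 12 and NPAS4 1 to 16 counts per ovary, so their pairs rest on few counts. The rho of FOSB with EGR4 was -0.0242. By permutation with adjustment over 45 pairs, 10 passed by Pearson and 15 by Spearman, and the share of all gene pairs that pass is not given here. EGR2 with ARC had r = 0.875 and rho = 0.864 (adjusted permutation p = 0.0039 and 0.00675) and r = 0.696 without the 2 farthest rats, whereas EGR4 with ARC fell from 0.773 to 0.316 and so rested on those rats. Of the 30 other fast-response genes 16 were higher and 3 lower in ovary than in brain (median 1.41 against 0.02 over all genes), with CCN1, a matrix protein, at 4.70 ± 0.25 and EGR3 at -4.35 ± 0.32. Of 10 ovulatory response genes 7 were higher and 1 lower (median 1.93), with EREG, an EGF-like ligand of the ovulating follicle, at 8.28 ± 0.86. Among all genes tested in ovary, 27.7% were higher and 29.2% lower. Theca and luteal markers summed to 2701 to 8061 CPM in ovary and at most 1.75 CPM in brain.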

How the data were processed

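RNA was sequenced in 55 sheep and 58 rat libraries, each 1 tissue of 1 animal. The deposited values are raw counts per gene, 1 column per library, with no normalization. Per the labels, sheep RNA (TRIzol) went into Kapa stranded libraries and rat RNA (Zymo kit) into Watchmaker stranded libraries, and both ends were read for 150 bases (NovaSeq X Plus). Per the labels, trimming used Trimmomatic 0.39, alignment STAR 2.7.5a (GRCr8 or ARS-UI_Ramb_v3.0) and counting Rsubread 2.20.0. Neither the strand setting nor the treatment of reads with several places is known from these sources.

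Counts were tested with the quasi-likelihood test of edgeR 4.0.16 in R 4.3.3, with TMM factors, filterByExpr by group and Benjamini-Hochberg adjustment over all genes tested. Calls needed adjusted p < 0.05 together with a log2 fold change of 1 or more in size. SEs were computed back from the F statistic. The sheep contrasts were 1 region with the average of the other 9, 1 animal with the other 4, and sperm with the average over regions. The region, animal, sperm and ovary tests treat libraries of 1 animal as separate, so p-values measure the spread between these libraries. No source says whether library preparation was shared. Correlations used log2(CPM + 1) and 100000 permutations, two-sided, whose smallest p is 1e-05. DESeq2 1.42.0 and other settings served as alternatives. In simulated counts, 100% of 200 genes changed by a log2 of 2 were recovered in each of the 6 comparisons. The simulation gave all genes the same dispersion, changed no gene of low level, and held no animal effects or outlying libraries. It therefore does not measure recovery for genes as variable or as low as some members.

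Tissues of the same number come from the same animal, so a fit with the animal as a block was an alternative. Deviations of paired tissues from their group means had a median correlation of 0.0648 in sheep, 0.0573 between rat sperm and brain and 0.00282 between ovary and brain. The 10 members were all named. From the lists, up to 4 called genes per direction with the largest change could be named, and the 10 genes with the highest mean correlation with the members in each species. Members and lists were chosen with earlier results of these data known.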

Additional observations from a re-analysis of the deposited data

Results flagged for a closer look

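Of 110 groups of 5 sheep libraries (10 members in 10 regions and sperm), 14 held a value far from the other 4 by Dixon's criterion. Chance alone passes it in about 1 of 20 groups if values are independent and normally distributed. The values here are CPM without logs, members share libraries, and a lone value above 0 always passes. The 14 can therefore not be set against that rate. Frontal cortex of sheep 699 had FOS at 97.2 CPM (others 12.5 to 28.5), FOSB at 33.3 (2.41 to 11.2) and NR4A1 at 112 (13.9 to 24.8). Hippocampus of the same sheep had FOS at 84.6 CPM (17.7 to 25.8), FOSB at 12.2 (3.42 to 5.88), EGR1 at 28.2 (7.87 to 11.6) and NR4A1 at 51.9 (6.53 to 15.6). In posterior parietal cortex of 694, FOS was at 99.8 CPM (15.3 to 29.7), FOSB at 31.5 (3.92 to 10.2) and NR4A1 at 119 (14.1 to 26.2). JUNB in pons of 687 was at 14.9 CPM (7.04 to 8.82) and EGR4 in entorhinal cortex of 688 at 15.7 CPM (4.24 to 6.22). In sperm, EGR4 of 694 was at 0.888 CPM with 0 in the others, and ARC of 688 at 1.51 CPM (0 to 0.296).

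The difference between sperm and brain of the same animal went in opposite directions in the species for 3 members, in every animal with TMM scaling. FOS was 4.06 higher in sheep sperm (log2, 2.94 to 5.42 over 5 sheep) and -2.67 in rats (-4.47 to -1.47 over 15). FOSB was 3.97 (3.24 to 4.62) and -2.18 (-3.37 to -0.20), and NR4A3 was 3.06 (0.97 to 5.28) and -3.92 (-4.55 to -1.91). With plain library totals FOS was higher in 5 of 5 sheep and lower in 15 of 15 rats, FOSB higher in 5 of 5 sheep and lower in 14 of 15 rats, and NR4A3 higher in 3 of 5 sheep and lower in 15 of 15 rats. The difference between the species was not tested, and species, kits and brain sampling cannot be told apart.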

How the results depend on the processing

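Of 62 results for single genes, 49 kept their direction and their side of the threshold under every alternative that was run, and the sign of 4 turned. Without 1 sheep at a time, 6 to 11 members were called higher over regions (6 without replicate 690) and 8 to 11 lower. Plain totals gave 4 members called lower in sheep sperm. Reversals were NR4A1 in sheep sperm without 1 sheep (-0.026 without 694, to 0.44 without 699) and with plain totals (-2.04, adjusted p = 0.000709, edgeR), NPAS4 there with upper quartile factors (0.24), JUNB in rat sperm with RLE factors (-0.19), DESeq2 (-0.19) and plain totals (-0.18), and NR4A1 in ovary without the low-count filter (0.022) and with upper quartile factors (0.069). The replicate block, by animal, ended the calls of EGR2 in motor cortex (1.34, adjusted p = 0.0509, edgeR), FOS in pons (0.96) and EGR4 in visual cortex (0.98), and added calls of EGR1 in cerebellum (-1.05) and of EGR4 (1.13) and ARC (1.03) in frontal cortex, and changed no other call of a member. NR4A1 in sheep sperm was called higher with upper quartile factors (1.01), and NPAS4 lower without 699 (-1.46). DESeq2 gave no adjusted p for EGR4 and NR4A3 in rat sperm. The plain-total runs, the runs without named libraries and those on NR4A1 between organs were added after the data were seen. Causes were not tested.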
